A study of Homo sapiens with 2 samples.

Results

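AP-1 is a family of dimeric transcription factors built from basic leucine zipper (bZIP) proteins, and the results concern 10 of its genes. FOS, FOSB, FOSL1 and FOSL2 encode the FOS proteins, JUN, JUNB and JUND the JUN proteins, and ATF3, BATF3 and MAFF related bZIP proteins. They were taken by symbol from the deposited tables of 26506 genes, and each of the 10 was found once. The poly(A) RNA came from an established line of epithelial cells of the human cornea (ATCC CRL-11515) after 72 hours of culture. One group grew in keratinocyte serum-free medium (KSFM), for which the labels list no additions. The other grew in what the labels call the special medium, DMEM/F12 with 10% fetal bovine serum, EGF at 10 ng/mL, added calcium chloride at 1 mM, and an antibiotic and antimycotic mix. The base medium and serum therefore differ between the groups. Calcium, EGF and the antibiotic and antimycotic mix are listed for the special medium only, and the labels do not say whether KSFM held them. The effects of all these cannot be told apart. RNA of 3 cultures was pooled per medium, which gives 1 library per medium, no spread between cultures, and no p-value.

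FOS proteins do not form stable dimers with themselves and bind DNA mostly as partners of a JUN protein, whereas JUN proteins also pair with each other. The dimers bind the AP-1 site, and pairings that include ATF proteins favour the cyclic AMP response element (CRE). Growth factors, serum and stress induce FOS, FOSB, JUN, JUNB, ATF3 and MAFF as immediate early genes, in bursts that usually fade within hours, while FOSL1 and FOSL2 follow later and JUND is expressed more steadily. In surface epithelia AP-1 is known for its part in wound repair, matrix protease expression, inflammation and keratinocyte differentiation.

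The KSFM library held 21604652 counts and the special medium library 16900472. Counts divided by the scaled library size are given as CPM, and levels of different genes are compared only on the deposited TPM, which is also per transcript length. A ratio is special medium over KSFM, and the range in parentheses after it is the exact 95% interval, which covers counting error only. To be called, a gene needed 1 CPM or more in one of the libraries, a difference of 2-fold or more, and an interval that left out a ratio of 1. The labelled cell type was checked against its markers. Of 11 epithelial and corneal markers 7 reached 1 CPM, among them the general epithelial genes KRT8, KRT18, KRT19, CDH1 and EPCAM, and PAX6, the eye-field factor kept in corneal epithelium, which had 3.20 and 4.31 CPM. Of these 7, 2 were called higher in the special medium, KRT8 at 2.78-fold (2.71 to 2.86) and KRT19 at 3.43-fold (3.29 to 3.58). The others were not called, and of these the basal keratin gene KRT5 and CDH1 had ratios below 1, of 0.660 (0.609 to 0.715) and 0.799 (0.775 to 0.823). KRT14, with 4 and 10 counts, and TP63, with 5 and 13, both known from basal cells, stayed under 1 CPM. Markers other than PAX6, KRT3 and KRT12 were named after their values were seen, and the part of their differences in the AP-1 results was not tested. The keratins that define corneal epithelium were absent or nearly so, KRT12 having 0 counts and KRT3 a single count, in the special medium. The limit that a count of 0 allows, taken as 3 counts, is 0.139 CPM for the KSFM library and 0.177 CPM for the other. Of 19 markers of fibroblasts, endothelium, immune cells and melanocytes, 4 reached 1 CPM and none of these was called. In KSFM and the special medium, CD68 had 57.0 and 59.8 CPM and MITF 18.6 and 21.3 CPM. COL1A1 had 7.69 and 8.45 CPM and PMEL 4.17 and 6.21 CPM, so all 4 were above PAX6. A call compares the media and does not show which cell types were present.

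The 2 genes with the highest and the lowest ratio in the JUN family are printed first, a pair chosen after the values were seen. The part of their sequences in the difference between media was not tested. Each sequence is the 250 bases before the RefSeq start (build GRCh38.p14), read 5′ to 3′ on the gene's own strand. Capitals mark the TATA element TATAAA, the CCAAT box, the CRE TGACGTCA and the CRE core TGACG, each on either strand. The JUNB stretch is chr19:12791236-12791485 on the plus strand and the JUND stretch chr19:18281623-18281872 on the minus strand.
JUNB: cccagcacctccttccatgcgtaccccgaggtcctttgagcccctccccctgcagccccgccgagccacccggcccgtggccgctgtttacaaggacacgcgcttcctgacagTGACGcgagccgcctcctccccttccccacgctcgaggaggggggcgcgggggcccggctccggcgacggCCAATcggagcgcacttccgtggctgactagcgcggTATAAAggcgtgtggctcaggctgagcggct
JUND: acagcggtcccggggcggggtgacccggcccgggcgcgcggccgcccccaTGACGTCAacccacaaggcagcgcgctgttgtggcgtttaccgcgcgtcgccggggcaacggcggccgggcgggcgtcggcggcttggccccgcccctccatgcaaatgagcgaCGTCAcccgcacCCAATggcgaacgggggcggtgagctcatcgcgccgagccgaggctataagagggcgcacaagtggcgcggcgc
In JUNB, TATAAA lies at positions −31 to −26 from the start and CCAAT at −67 to −63, and a CRE core at −137 to −133. JUND has no TATAAA in this window, a whole CRE at −200 to −193, a further core on the other strand at −86 to −82 and CCAAT at −74 to −70. Variants of TATAAA were not searched for, and the letters tataag stand near the end of the printed JUND stretch. The GC box GGGCGG occurs 6 times in the 300-base window of JUND (250 bases before and 50 after the start) and 0 times in that of JUNB. Of all 35116 promoter windows in the table, TATAAA was in 11.5%, CCAAT in 34.6%, TGACGTCA in 1.85%, TGACG in 24.6% and GGGCGG in 45.0%. A match is a run of letters and not a measured binding site.

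RefSeq windows were found for 8 of the 10 genes, not for FOSL1 and BATF3. ATF3 and MAFF have 2 windows each, for different starts. TATAAA was also found in FOS at −33 to −28, in FOSB at −30 to −25 and, much farther from the start, at −230 to −225 in the downstream window of ATF3. A whole CRE was also found in the upstream window of MAFF, at −54 to −47. The letters TGACATCA, the form of the site known from the JUN promoter, were in JUN at −67 to −60 and in the upstream window of ATF3 at −123 to −116, against 2.61% of all windows. The AP-1 site TGACTCA was found in FOSL2 alone among the 8, at 5 to 11 after the start, against 4.95% of windows. The CArG box, which binds serum response factor, was in no window of the 8 genes and in 1.29% of all windows. Sequence farther upstream or downstream than these windows was not searched, for this or any other motif. A CArG box of FOS or of another gene that lies outside its window would have been missed. TGACG, which every whole CRE contains, was in 7 of the 8, all but ATF3.

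Among the FOS genes, all 4 had more RNA in the special medium and none reached 2-fold. FOSL1 encodes FRA-1, a FOS protein of proliferating and migrating epithelial cells, and was the most abundant of the 10 genes in both media. Its deposited TPM was 226.36 in KSFM and 321.97 in the special medium. Its counts of 4371 and 4276 are a scaled ratio of 1.25 (1.20 to 1.30). In bulk RNA such as this, fewer cells that express a gene and less of its RNA per cell cannot be told apart. FOS, the founding member and the classical serum-induced gene, had 88.22 and 129.08 TPM, on 2136 and 2170 counts, a scaled ratio of 1.30 (1.22 to 1.38). FOSB, its closest relative, had 30.19 and 43.60 TPM, on 1297 and 1312 counts, with a ratio of 1.29 (1.19 to 1.39). FOS and FOSB thus kept their proportion, with 2.92 FOS transcripts per FOSB transcript by TPM in KSFM and 2.96 in the special medium. The ratio of their counts differed 1.00-fold between media (0.910 to 1.11). FOSL2, which encodes FRA-2, was the least abundant FOS gene at 20.46 and 34.60 TPM, and its ratio of 1.51 (1.38 to 1.65) was the highest of the 4, with an interval that overlaps that of FOSB. Its count relative to FOSL1 was 1.21-fold higher in the special medium (1.10 to 1.34), a comparison that does not depend on library scaling.

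**Figure D1:**
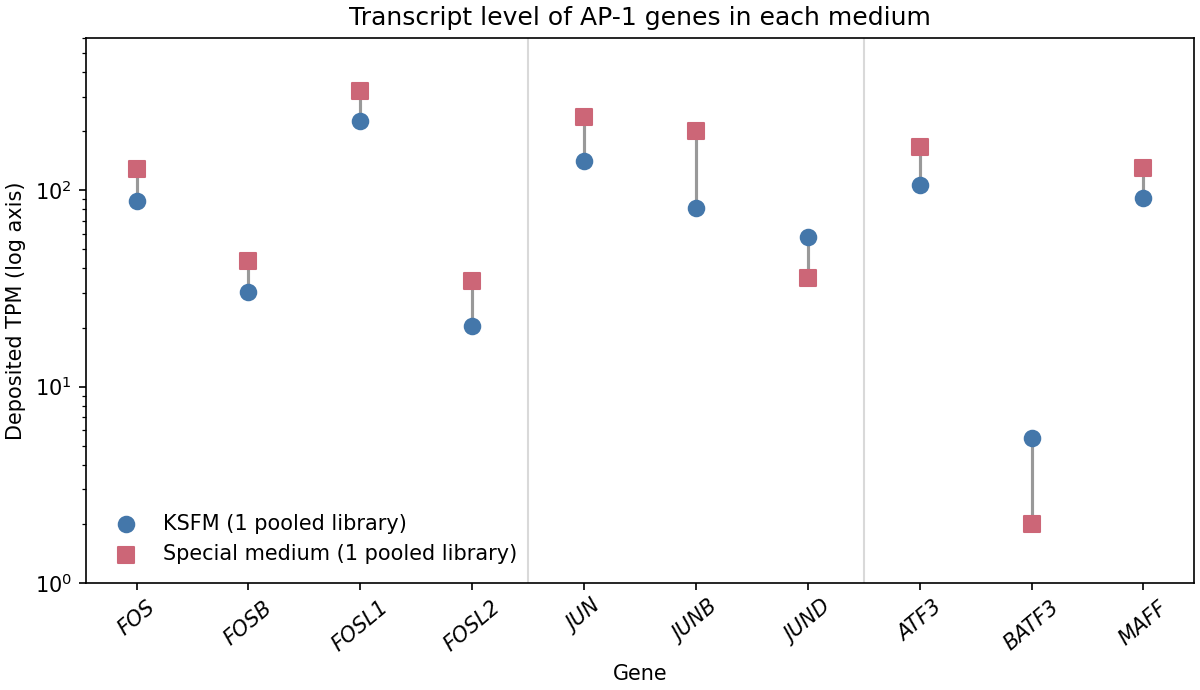
Deposited TPM (vertical, log axis) of the 10 AP-1 genes (horizontal) in the KSFM library (circles) and the special medium library (squares), with grey rules between the FOS, JUN and other genes. The special medium point is the upper one for 8 genes and the lower one for JUND and BATF3, and FOSL1 is highest in both media.

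The JUN genes moved apart. JUNB encodes a JUN protein that can restrain JUN and that regulates epidermal differentiation and inflammation. It had 80.98 TPM in KSFM and 201.82 in the special medium, on 1636 and 2820 counts, and was 2.20-fold higher (2.07 to 2.34), the only one of the 10 genes called higher. JUN, which encodes the main partner of FOS proteins, had 140.97 and 237.60 TPM, on 5339 and 6292 counts, a ratio of 1.50 (1.45 to 1.56) that is below the 2-fold bound. JUND encodes the JUN protein usually found in resting cells and went the other way. Its TPM was 57.74 in KSFM and 35.61 in the special medium, on 1266 and 541 counts. That is 1.83-fold lower (1.66 to 2.03), short of 2-fold, so it was not called, although its interval excludes equality.

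Within a library, these genes can be set against each other with no scaling. JUNB had 1.40 transcripts per JUND transcript by TPM in KSFM and 5.67 in the special medium. On counts that proportion was 4.03-fold higher in the special medium (3.58 to 4.55). JUNB per JUN was 0.574 by TPM in KSFM and 0.849 in the special medium, a 1.46-fold difference on counts (1.36 to 1.57). JUND per JUN went from 0.410 to 0.150, and on counts the special medium had 0.363 times the KSFM proportion (0.325 to 0.404). JUN per FOS differed less, from 1.60 to 1.84 by TPM, or 1.16-fold on counts (1.08 to 1.24).

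Of the 3 related bZIP genes, ATF3, a stress-induced factor that often represses its targets, had 106.77 and 165.71 TPM on 2424 and 2576 counts. Its ratio was 1.36 (1.28 to 1.43). MAFF encodes a small MAF protein, which lacks an activation domain and acts through its partners. It had 91.27 and 129.46 TPM on 2491 and 2423 counts, a ratio of 1.24 (1.17 to 1.31) that cannot be told from the 1.25 of FOSL1 by counting error. BATF3, an AP-1 partner best known from dendritic cells, was scarce. It had 5.47 TPM in KSFM and 1.99 in the special medium, on 57 and 14 counts, and was 3.19-fold lower (1.76 to 6.20). BATF3 was the only one of the 10 called lower, and its low counts leave the size of the difference poorly bounded. It reached 1 CPM only in KSFM, the medium where it was higher, with 2.64 CPM there and 0.827 CPM in the special medium.

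All 10 genes passed the 1 CPM filter. Across the 13632 genes that did, 16.6% were called, 9.86% higher and 6.77% lower. With 1 of 10 called higher and 1 of 10 lower, the AP-1 genes were called about as often as genes in general. The gene called lower, BATF3, passed the filter through the KSFM library alone, so its call is not independent of the filter. Of the 9 genes that reached 10 CPM, all but BATF3, JUNB alone was called, where 11.9% of all genes at that level were called, 7.57% higher and 4.28% lower. Intervals lay wholly above equality for 8 of the 10, against 37.2% of all genes, and wholly below it for JUND and BATF3, against 36.7%. Whether an interval excludes equality depends on depth too. These shares cover all genes from 1 CPM up, whereas 9 of the 10 reached 10 CPM, so the 2 are not matched for depth. The median log2 ratio of the 10 was 0.37, and that of all genes −0.00. On TPM with a pseudocount of 1 the medians were 0.53 and 0.15. On that scale higher genes made up 78.4% of those past 2-fold among all genes, and 73.4% with a pseudocount of 0.1, against 59.3% on counts. JUNB and BATF3 were past 2-fold on TPM too, and each of the 10 genes kept its direction under all 8 alternatives that recompute the ratio.

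The 7 genes other than JUNB that had more RNA in the special medium, a group named after the values were seen, lay close together, between 1.24-fold for MAFF and 1.51-fold for FOSL2. A ratio in that range was found for 11.8% of all genes. A ratio at least as high as that of JUNB was found for 8.15% of genes, one at least as low as that of JUND for 8.91% and one at least as low as that of BATF3 for 1.99%.

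**Figure D2:**
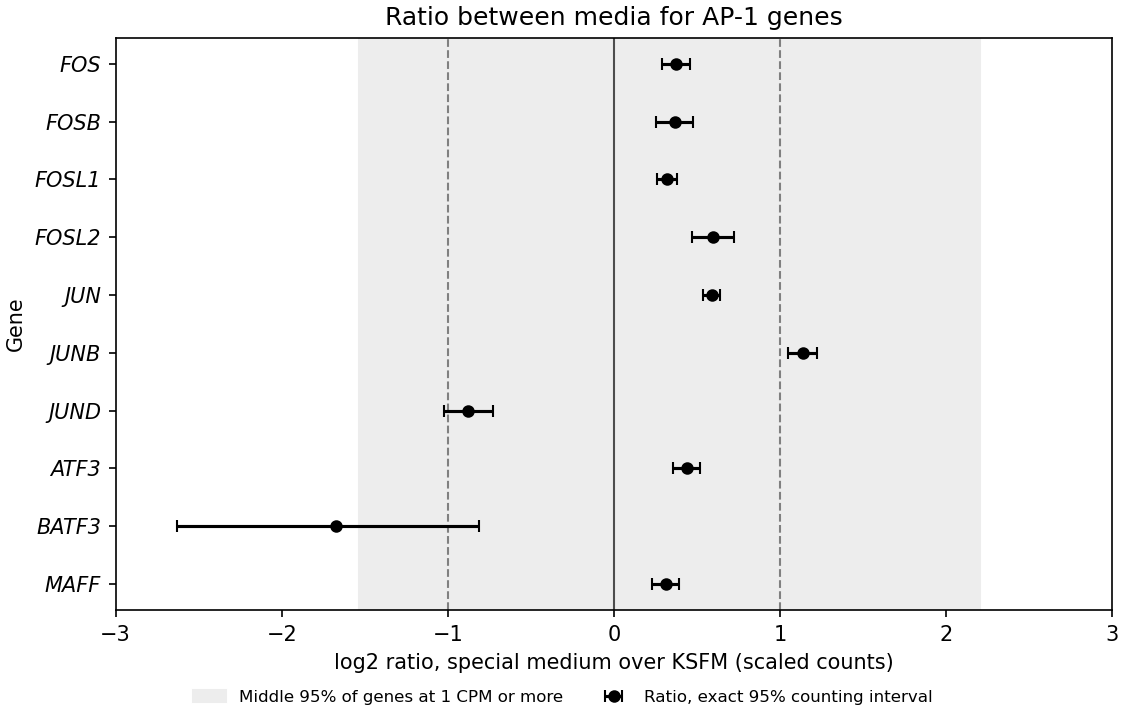
Log2 ratio of special medium over KSFM (horizontal) for each of the 10 genes (vertical), with exact 95% counting intervals as bars; dashed lines mark 2-fold and the grey band holds the middle 95% of all genes at 1 CPM or more. JUNB at 1.14 is past the upper dashed line with its whole interval, the JUND point at −0.88 lies short of the lower one although its interval crosses it, and BATF3 at −1.67 has the widest interval.

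The 10 genes summed to 848.43 TPM in KSFM and 1301.44 in the special medium, 1.53-fold more. TPM ran higher there in general, with a median log2 ratio over all genes of 0.15 (pseudocount 1), against −0.00 on scaled counts. The sum is not corrected for that shift. The FOS genes held 43.0% of this sum in KSFM and 40.7% in the special medium, the JUN genes 33.0% and 36.5%, and ATF3, BATF3 and MAFF together 24.0% and 22.8%. The shares by family therefore differed little, and the larger differences were inside the JUN family. JUNB went from 9.54% to 15.5% of the sum and from rank 6 to rank 3 by TPM. JUND went from 6.81% to 2.74% and from rank 7 to rank 8, below FOSB. FOSL1 held 26.7% and 24.7%, and JUN, the second in rank in both media, 16.6% and 18.3%. The order after JUN was ATF3, MAFF, FOS and JUNB in KSFM, where the last 3 lay within 80.98 to 91.27 TPM. In the special medium it was JUNB, ATF3, MAFF and FOS, with MAFF and FOS at 129.46 and 129.08 TPM. With 1 library per medium there is no spread between cultures to order such neighbours.

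**Figure D3:**
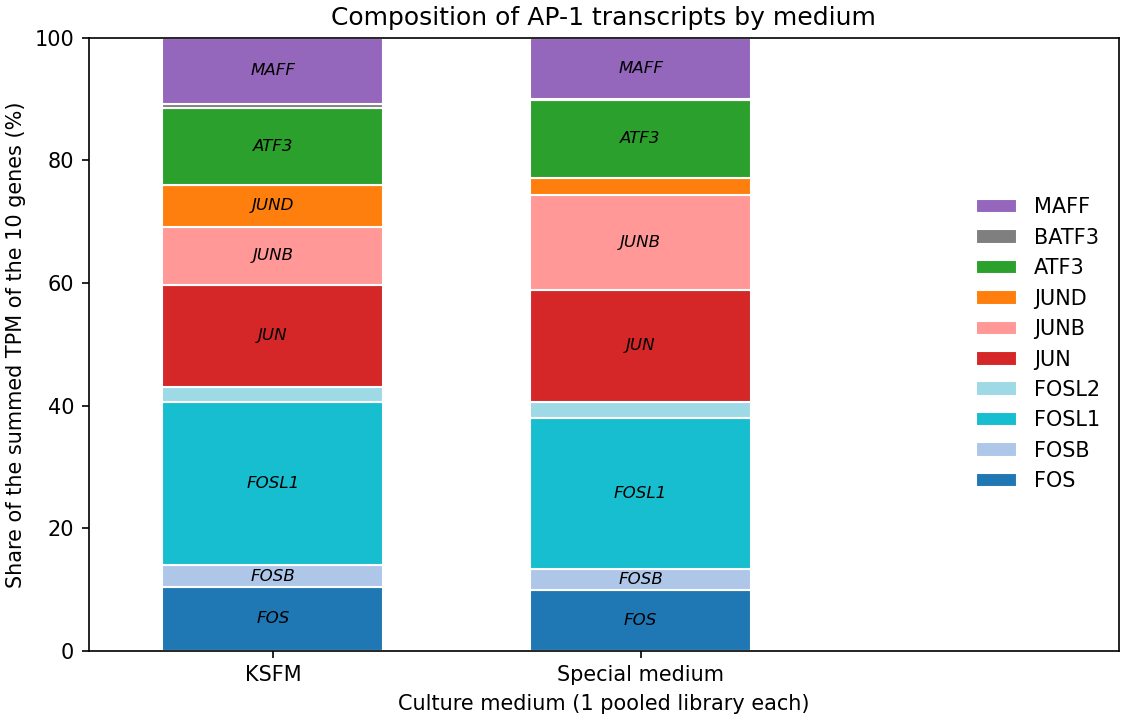
Share of the summed TPM of the 10 genes (vertical, percent) held by each gene in the KSFM and the special medium library (horizontal), as stacked bars. JUNB widens from 9.54% to 15.5% and JUND narrows from 6.81% to 2.74%, while FOSL1 is the largest block in both.

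On GRCh38, in GENCODE release 29 gene bounds, JUNB (ENSG00000171223) is a gene of 1 exon on chromosome 19, from 12791496 to 12793315. JUND (ENSG00000130522) lies on the same chromosome from 18279760 to 18281622, and FOSB (ENSG00000125740) from 45467995 to 45475179. JUN (ENSG00000177606), also of 1 exon, spans 58780788 to 58784327 on chromosome 1. ATF3 (ENSG00000162772) and BATF3 (ENSG00000123685) are close on that chromosome, from 212565334 to 212620777 and from 212686418 to 212699985, and differed in opposite directions. FOS (ENSG00000170345) is on chromosome 14 from 75278774 to 75282230, and FOSL1 (ENSG00000175592) on chromosome 11 from 65892049 to 65900573. FOSL2 (ENSG00000075426) is on chromosome 2 from 28392448 to 28417312, and MAFF (ENSG00000185022) on chromosome 22 from 38200767 to 38216511. JUNB overlaps HOOK2, FOSB overlaps ERCC1, MAFF overlaps PLA2G6 and FOSL2 overlaps FLJ31356, each on the opposite strand. FOSL2 also overlaps AC104695.3, a sense intronic gene on its own strand, whose counts are not given here. The strand setting of the counting is not given in the sources used here, so the split of reads in those overlaps is uncertain. HOOK2 had 861 and 633 counts, a ratio of 0.938 (0.845 to 1.04), unlike JUNB. ERCC1 and PLA2G6 had ratios of 1.12 (1.02 to 1.23) and 0.820 (0.644 to 1.04), and FLJ31356 had 28 and 26 counts.

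Genes around AP-1 were read as 7 lists, each by its counts under the same rule and beside the 16.6% of all genes called. Among 8 measured other AP-1 and ATF factors, 0 were called higher and 1 lower (median log2 ratio 0.12). That gene was CREM, a cyclic AMP-responsive modulator, which had 639 and 235 counts and was 2.13-fold lower (1.83 to 2.49), and stayed under 2-fold on TPM before centring. JDP2, a JUN dimerization partner that represses AP-1, had 11.89 and 26.97 TPM and a ratio of 1.98 (1.78 to 2.21), just under the bound. On TPM before centring JDP2 passed 2-fold, so that 1 gene of this list was higher and 0 were lower. JDP2 was named after its value was seen.

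Of 11 measured genes of MAF proteins and their CNC and BACH partners 2 were called higher and 2 lower (median 0.32). NFE2L3, a CNC factor that binds DNA with small MAF proteins such as MAFF, had 9.64 TPM in KSFM and 68.63 in the special medium and was 6.35-fold higher (5.71 to 7.08). NFE2, the CNC factor first known from blood cells, had 141 and 291 counts and was 2.63-fold higher (2.15 to 3.24). The large MAF genes MAFA and NRL were called lower on few counts, 29 and 3 for MAFA and 39 and 8 for NRL. The small MAF genes other than MAFF were not called, with ratios of 0.686 (0.643 to 0.731) for MAFG and 1.16 (1.09 to 1.24) for MAFK. Both were named after their values were seen.

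The MAP kinase cascade carries growth factor and stress signals to FOS and JUN proteins. Of its 23 measured genes 3 were called higher and 0 lower (median 0.11), a share near that of all genes. MAP3K5, which encodes the stress kinase ASK1, was 5.53-fold higher (4.50 to 6.85), on 113 and 490 counts. MAPK3, which encodes ERK1, had 45.30 and 152.04 TPM and was 2.66-fold higher (2.46 to 2.88). MAP2K6, an activator of p38 kinases, had 10 and 27 counts. The genes of JNK1 and JNK2, kinases that phosphorylate JUN, were not called, with ratios of 0.787 (0.732 to 0.846) for MAPK8 and 1.39 (1.30 to 1.50) for MAPK9. Both were named after their values were seen.

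Factors that act at the serum response element, where serum and EGF signals reach the FOS promoter, included 0 called genes of 6 (median −0.34). SRF, the serum response factor itself, had 39.66 and 35.65 TPM and a ratio of 0.801 (0.741 to 0.865). ELK3, an ETS partner of SRF, had 43.29 and 43.13 TPM and a ratio of 0.891 (0.833 to 0.953). MKL2, another gene of this list named after its value was seen, had a ratio above 1, of 1.34 (1.22 to 1.47). The part of these factors in the ratios of the AP-1 genes was not tested.

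Other immediate early genes gave 4 called higher and 1 lower of 18 (median 0.34, close to the 0.37 of the AP-1 genes). KLF10, a TGF-beta-inducible Krüppel-like factor, had 26.48 and 143.24 TPM and was 4.86-fold higher (4.52 to 5.23). NR4A2, KLF2 and KLF4 were also called higher, KLF4 at 2.59-fold (2.28 to 2.95). ARC had 111 and 31 counts and was 2.81-fold lower (1.87 to 4.33), a call it kept under 8 of the 12 alternative settings, with −0.89 as the log2 ratio nearest 0. EGR1, an abundant immediate early gene named after its value was seen, had 520.69 and 620.71 TPM and a scaled ratio of 1.06 (1.04 to 1.09), less than that of FOS or JUN.

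Genes that degrade or modulate AP-1 proteins had 0 calls of 11 (median 0.08). The 2 most abundant, by the mean TPM of both libraries, were NACA, a nascent-chain factor that also acts as a JUN coactivator, with a ratio of 0.750 (0.731 to 0.769), and COPS5, known as the JUN-activation-domain-binding protein, at 1.08 (1.01 to 1.15).

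Of 20 measured genes known from the literature as AP-1 targets 9 were called higher and 4 lower (median 0.94). The list was drawn up with earlier results of these data known, so its counts are no independent evidence. CXCL8, which encodes a neutrophil chemokine, had 80 and 959 counts, PLAU, which encodes urokinase, 2878 and 13726, and MMP1, an interstitial collagenase gene, 70 and 288, all called higher. MMP13 was called higher on 5 and 17 counts, a call it kept under 7 of the 12 alternatives, with a log2 ratio as low as 0.48. IL24 and IL11, both cytokine genes, were called lower, with 3907 and 301 counts for IL24 and 1880 and 275 for IL11. The other 7 called genes were named after their values were seen. IL6, an inflammatory cytokine gene, had 69.88 and 332.52 TPM and was 4.14-fold higher (3.84 to 4.47). TGM1, the transglutaminase of the cornified envelope, was 2.88-fold higher (2.47 to 3.35), and CD44, the hyaluronan receptor gene, 2.42-fold (2.35 to 2.50). PLAUR, the urokinase receptor gene, and TIMP1, an inhibitor of matrix proteases, were 2.06-fold (1.87 to 2.27) and 2.02-fold (1.90 to 2.15) higher. VIM, the vimentin gene, was called lower, and MMP9 was 2.09-fold lower (1.13 to 4.07) on 40 and 15 counts, under 2-fold on TPM with a pseudocount of 1. The differentiation markers IVL, SPRR1B and LOR, also named after their values were seen, stayed under 1 CPM in both media, LOR with no count.

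**Figure D4:**
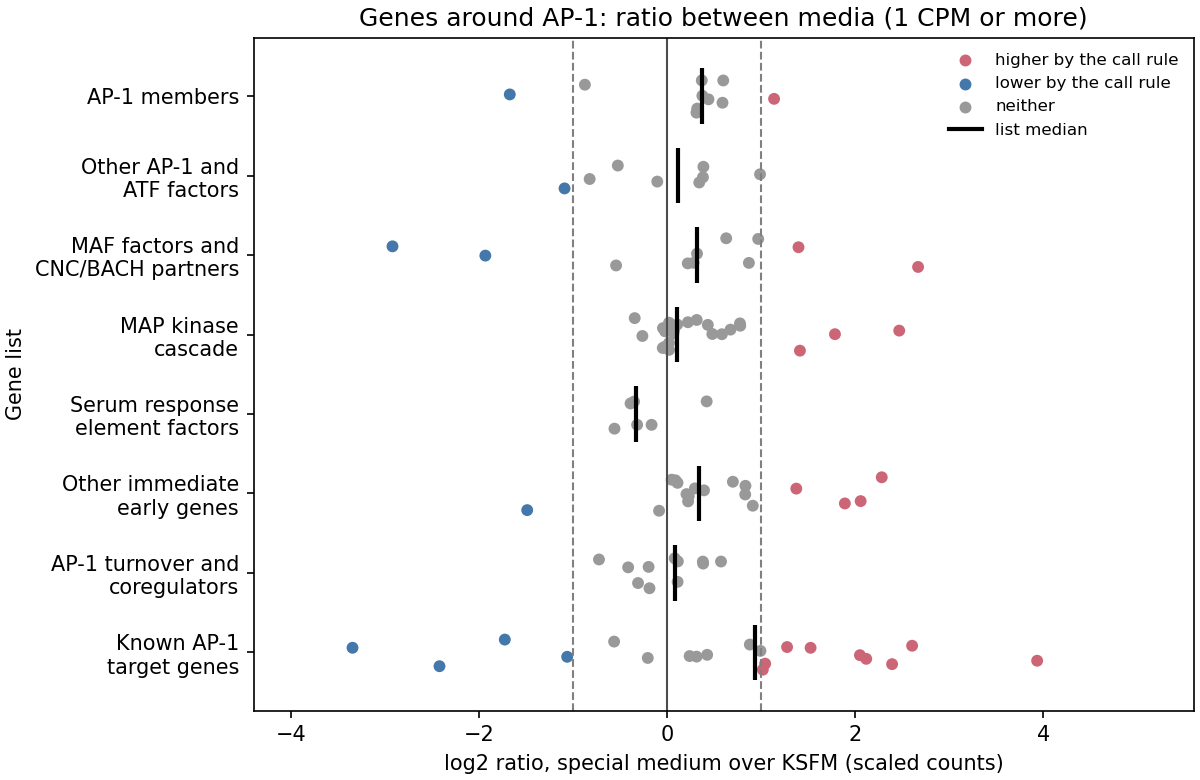
Log2 ratio of special medium over KSFM (horizontal) for the 10 AP-1 genes and for the genes at 1 CPM or more in 7 lists around them (vertical, with random offset), coloured by call; black bars are list medians and dashed lines mark 2-fold. The AP-1 genes lie mostly between 0.31 and 0.60, while the known target genes spread to both sides with a median of 0.94.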

How the data were processed

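Poly(A) RNA of the 2 media was sequenced as 1 pooled library each, from a stranded kit per the labels' protocols. Per the submitters' processing notes, the tools were HISAT2 2.1.0, RSEM, fastp 0.20.0 and FastQC 0.11.9 and the build GRCh38. How strand was counted and which annotation was used is not given in the sources used here. Estimated counts, some of them fractional, and TPM values were deposited by the authors.

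Estimated counts were rounded and library sizes scaled over all 26506 genes by edgeR 4.0.16 TMM factors. Ratios carry exact 95% Clopper-Pearson intervals, conditional on the summed count, and proportions between genes carry exact conditional odds ratio intervals. Intervals cover counting error only, as reads carry no molecular identifiers. The interval method was run on simulated Poisson counts, which hold only the counting error that the interval assumes. That run cannot show how the intervals hold for these libraries. GENCODE release 29 gave coordinates and GC content, and RefSeq (GRCh38.p14) promoters.

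Named genes are the 10 members and, per list, up to 6 past the rule, or else the 2 most abundant by TPM; others are marked where named. Members and lists were chosen with earlier results of these data known. Alternatives were scaling by total count, by upper quartile or by DESeq2 1.42.0, TPM (pseudocount 1, 0.1, or 1 and centred), filters of 10 CPM or none, a 4-fold rule, intervals wholly beyond 2-fold, and removal of cubic trends on effective length and GC content. Scripts ran in Python 3.11.15 (scipy 1.17.1, numpy 2.4.6, matplotlib 3.10.9, pandas 2.3.3) and R 4.3.3.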

Additional observations from a re-analysis of the deposited data

How the results depend on the processing

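The 10 genes kept their direction under each of the 8 alternatives that recompute the ratio (3 scalings, 3 on TPM and 2 corrections), with JUNB called higher and BATF3 lower in all 8. All 8 kept a filter of 1 CPM in either library, which BATF3 passed only through KSFM. Of these 80 recomputed ratios 57 stayed within the counting interval, 23 moved outside it and 0 turned; JUNB ran from 1.12 to 1.32 on the log2 scale, JUND from −0.90 to −0.60 and BATF3 from −1.70 to −1.11. The value nearest 0 for JUND came with effective length and GC content corrected together. The median log2 ratio of the 10 was 0.53 on TPM with a pseudocount of 1 and 0.54 with 0.1, and 0.38 after centring.

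BATF3 is left out by a filter of 10 CPM, which leaves 0 AP-1 genes called lower, and over all genes 788 higher and 446 lower against 1344 and 923. No AP-1 gene passed a 4-fold rule, 0 in either direction, against 408 and 162 of all genes. With an interval wholly beyond 2-fold JUNB remained called and 0 were lower, with 837 and 395 over all genes. Genes called lower numbered 349 on TPM with a pseudocount of 1, 605 with 0.1 and 536 after centring. The medians of the other AP-1 and ATF factors and of the turnover genes changed sign among alternatives, from −0.11 to 0.34 and from −0.10 to 0.24.

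No paired analysis was possible because each medium has 1 library. Of the called genes outside the 10, CREM and ARC kept their call under 8 of the 12 alternatives, DBP, MAP2K6, MMP13 and NRL under 7 and MMP9 under 6. Depth limits BATF3, MAFA, NRL, MMP9, MMP13, MAP2K6 and DBP, each at under 60 counts in both libraries, and the spread between cultures was not measured.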

Other observations

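The remaining bZIP genes, outside AP-1 and listed after the data were seen, were called about as often as genes in general: of 18 at 1 CPM or more 2 were higher and 1 lower, with a median log2 ratio of −0.11 that ran from −0.18 to 0.05 over the alternatives. ATF4, the main factor of the amino acid and stress response, was the most abundant bZIP gene examined, at 1262.95 TPM in KSFM and 1515.67 in the special medium, more than the 848.43 and 1301.44 of the 10 AP-1 genes together. Its scaled ratio was 1.05 (1.03 to 1.07). The called genes were the PAR-type factors DBP, 2.18-fold higher (1.29 to 3.77) on 24 and 41 counts but with a log2 ratio as low as 0.70 among the alternatives and called under 7 of 12, and TEF, 2.39-fold higher (1.97 to 2.90), and the membrane-bound factor gene CREB3, 2.37-fold lower (2.20 to 2.56).

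Further bZIP genes had less RNA in the special medium without reaching 2-fold on TMM-scaled counts. CEBPB, a C/EBP factor of inflammation and differentiation, had 154.91 and 88.55 TPM and was 1.98-fold lower (1.86 to 2.10). CREB3L2 was 1.93-fold lower (1.79 to 2.07), DDIT3, which encodes the stress factor CHOP, 1.84-fold (1.69 to 2.02), and XBP1, a factor of the unfolded protein response, 1.59-fold (1.54 to 1.65). Other uncalled bZIP genes had more RNA there, with ratios of 1.56 (1.30 to 1.87) for CREB3L1, 1.34 (1.23 to 1.45) for ATF6B and 1.32 (1.24 to 1.40) for CREBZF.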
